A study of Mus musculus with 40 samples.

Results

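The 44 collagen genes of the mouse were followed through the growth of aggregates of embryonic stem cells, to see which of them were on at each stage and what XAV939 did to them. Membership followed the name, as every gene whose symbol has the form Col, a type number, a and a chain number, out of 26906 genes in the deposited table of counts. The choice was made with earlier results of these data known. The cells were the line CGR8 (strain 129), an embryonic stem cell line. XAV939 aggregates, which received the compound from 0 to 72 h, and untreated aggregates were each collected at days 3, 4, 5, 6 and 7, which makes 10 groups of 4 libraries. All 10 groups grew in serum-free N2B27 medium that held Activin-A, Fgf2 and KSR, so these factors are shared by both arms and have no group without them. Libraries from day 4 on were taken after the 72 h of exposure had ended. Matrigel is named as absent in the untreated titles and goes unmentioned in the XAV939 ones, so an effect of matrigel, if any was present, cannot be told apart from that of XAV939. XAV939 inhibits tankyrases, which stabilises Axin and lowers canonical Wnt signalling.

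Collagens are extracellular matrix proteins whose chains fold into trimers in the endoplasmic reticulum and are then secreted, trimmed and crosslinked. Type IV and type XVIII collagens belong to basement membranes, the sheets under epithelia that already form in the early embryo. Fibrillar collagens such as types I, II and III build the fibrils of connective tissue and cartilage and are chiefly made by mesenchymal cells, chondrocytes and the notochord, and fibril-associated collagens sit on the surface of such fibrils.

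The deposited totals ran from 30197759 to 44086019 counts per library. Levels are CPM, that is counts scaled to a common library total, with TMM factors, and levels of different genes are compared only as CPM per kb of exon. Counts carry no molecular identifiers, and the labels do not say that the replicates came from separate cultures. A p-value is read against the spread between libraries of the same group, with 1 estimate shared by all 10 groups. That spread may be technical. The 5 epiblast marker genes summed to 2620 to 3484 CPM in XAV939 and 2630 to 3255 CPM in untreated libraries at day 3, and at day 7 to 77.5 to 116 CPM in XAV939 and 84.9 to 155 CPM in untreated libraries. In bulk RNA, fewer cells of a type and less RNA per cell cannot be told apart. A gene was called on in a group where all 4 libraries had at least 1 CPM.

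The number of collagen genes on grew at every day. In XAV939 aggregates it was 14 of 44 at day 3, 19 at day 4, 23 at day 5, 26 at day 6 and 30 at day 7, and in untreated aggregates 15, 18, 24, 26 and 32 on the same days. With a threshold of 5 CPM the counts were lower, at 5, 7, 11, 14 and 17 in XAV939 and 6, 5, 11, 18 and 17 in untreated aggregates. The untreated counts at 5 CPM fell by day 4 and again by day 7. How many of all genes were on is not given here, so the growth is not read as a trait of collagens. The 12 genes on in all 10 groups were Col1a2, Col2a1, Col5a1, Col5a2, Col27a1, Col4a1, Col4a2, Col4a5, Col9a3, Col22a1, Col7a1 and Col18a1. A further 17 were off in both arms at day 3 and on in both at day 7, among them Col1a1, Col3a1, Col4a6, Col6a1, Col9a1, Col11a1, Col12a1 and Col13a1. Col6a3, a chain of the type VI microfibrils, was the one gene on in both arms at day 3 and off in both at day 7.

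**Figure D1:**
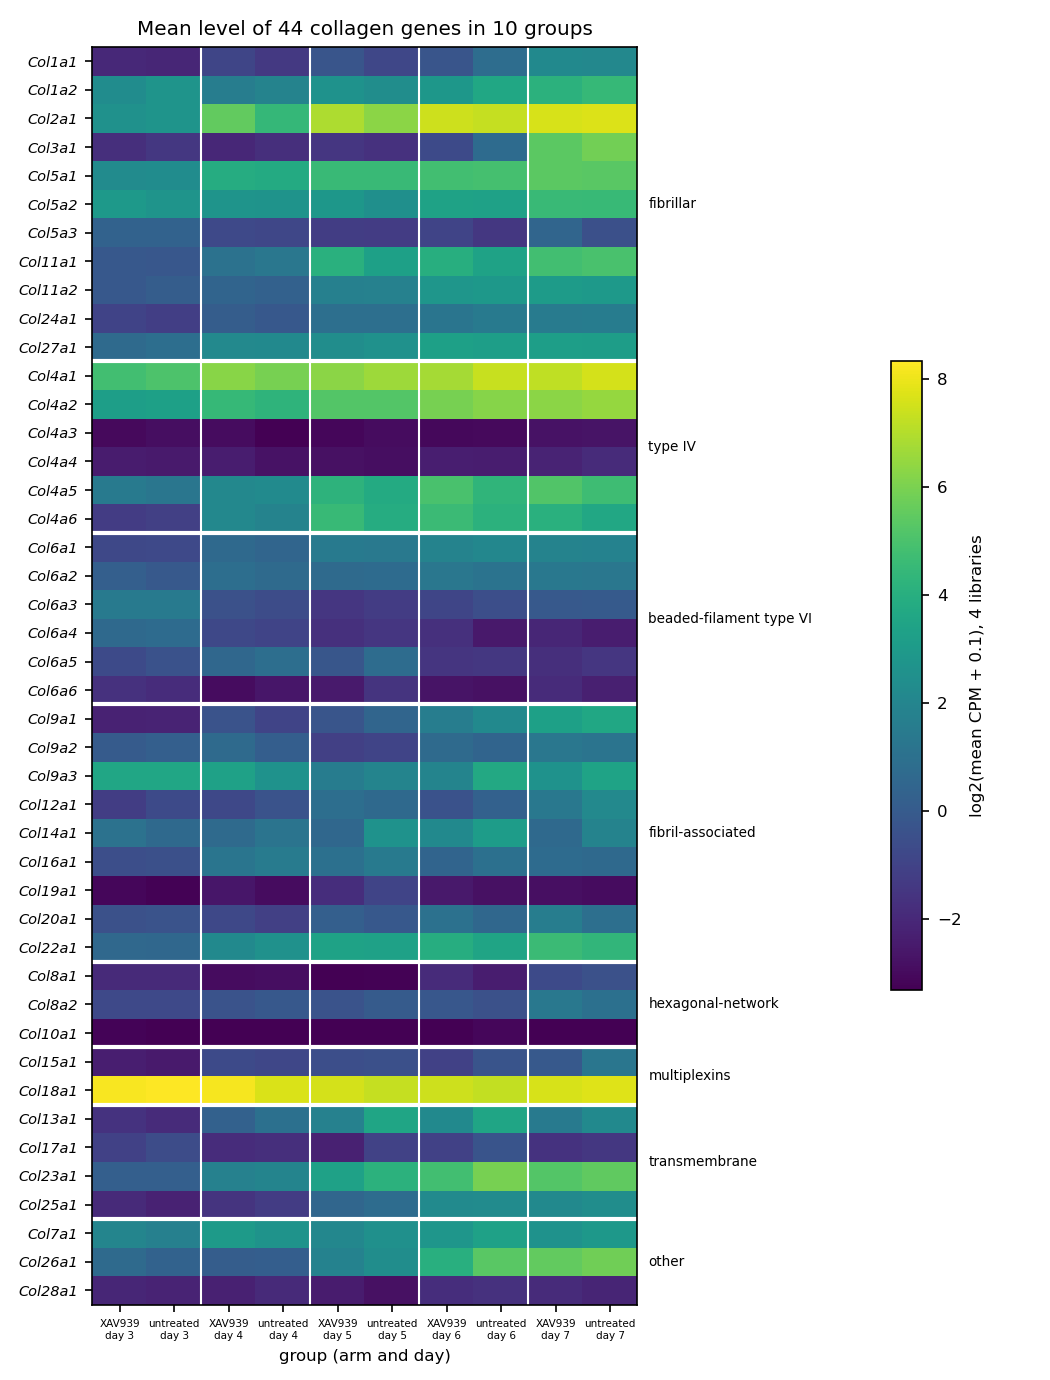
Mean level of the 44 collagen genes, as log2 of the mean CPM of 4 libraries plus 0.1 (colour), in each group (columns, XAV939 left of untreated within a day) and grouped by class (rows). Col18a1 is bright from day 3 on, Col4a1, Col4a2 and Col2a1 brighten by day, and 11 genes were on in no group.

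The 11 genes on in no group were Col5a3, Col4a3, Col4a4, Col6a4, Col6a5, Col6a6, Col8a1, Col10a1, Col17a1, Col19a1 and Col28a1. Their highest value in any library ran from 0.0571 CPM for Col10a1, the collagen of hypertrophic cartilage, to 3.48 CPM for Col6a5, in day 4 untreated library 2. Col4a3 and Col4a4, which encode chains of the mature kidney glomerular membrane, reached at most 0.0975 CPM for Col4a3 and 0.246 CPM for Col4a4. Of the 44 genes 38 passed the filter on low counts and were tested, whereas Col4a3, Col4a4, Col6a6, Col10a1, Col19a1 and Col28a1 did not pass and have no test.

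The largest part of the collagen RNA at day 3 came from 1 gene, Col18a1, which encodes a heparan sulphate-bearing basement membrane collagen. Per kb of exon it held 74.1% ± 1.97 of all collagen CPM in XAV939 and 74.97% ± 1.66 in untreated aggregates at day 3 (SD, n = 4 each). At day 7 its share was 21.4% ± 1.21 in XAV939 and 21.2% ± 2.09 in untreated aggregates. Over the same days the share of the 6 type IV genes grew, to 29.7% ± 3.31 at day 7 against 10.03% ± 0.742 at day 3 in XAV939 aggregates and to 30.3% ± 0.996 against 10.5% ± 0.602 in untreated ones. That of the 11 fibrillar genes was 30.6% ± 2.92 at day 7 against 5.40% ± 0.498 at day 3 in XAV939 aggregates and 29.1% ± 1.67 against 5.12% ± 0.573 in untreated ones. With the longest annotated transcript in place of the union of exons, Col2a1 was ahead of Col18a1 at day 7, at 21.6% ± 1.20 against 19.5% ± 1.22 in XAV939 and 20.0% ± 2.74 against 19.2% ± 2.04 in untreated aggregates. The summed level of the 44 genes was 395 ± 73.9 CPM in XAV939 and 430 ± 58.3 CPM in untreated aggregates at day 3, and 1016 ± 170 CPM in XAV939 and 1131 ± 41.3 CPM in untreated aggregates at day 7.

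Col18a1 itself fell a little rather than being lost. Its day 7 values were 237, 236, 152 and 170 CPM in XAV939 libraries 1 to 4, where day 3 had 376, 269, 302 and 228 CPM. In untreated libraries 1 to 4 day 7 had 218, 249, 188 and 220 CPM and day 3 had 394, 312, 279 and 303 CPM. The days overlapped in the XAV939 arm and did not in the untreated one. The log2 fold change of day 7 over day 3 was -0.56 in both arms (SE 0.22, adjusted p 0.024 in XAV939 and 0.0264 in untreated aggregates). These calls end without XAV939 library 1 of day 3 or library 3 or 4 of day 7 (adjusted p up to 0.11), and without untreated library 1 of day 3 or library 3 of day 7 (adjusted p up to 0.0981). Col15a1, the other gene of the class, was on only in untreated aggregates at day 7, with 5.31, 1.07, 1.24 and 1.57 CPM in libraries 1 to 4 against 0.943, 1.31, 0.767 and 0.391 CPM in XAV939 libraries. Those groups overlap, and the difference did not pass the test (log2 fold change -1.43, SE 0.45, adjusted p 0.198).

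Between day 3 and day 7, 30 of the 38 tested collagen genes rose and 5 fell in XAV939 aggregates, where 36.8% of all 16878 tested genes rose and 34.1% fell. In untreated aggregates 31 rose and 5 fell, where 34.7% of all genes rose and 32.6% fell. The median log2 fold change over the 38 genes was 2.65 in both arms, against 0.04 over all genes in XAV939 and 0.03 in untreated aggregates. The same 30 genes rose in both arms, and Col18a1, Col6a3, Col6a4 and Col6a5 fell in both. Col17a1, a hemidesmosome collagen of epithelia, was called in neither arm, and the calls of Col9a3, Col5a3 and Col14a1 differed between the arms. The 2 arms were tested apart, and whether their changes over days differ was asked only with the test of the XAV939 effect over days given below.

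The last step had fewer rises than the first, among the collagen genes as over all genes. Between days 3 and 4, 18 members rose and 4 fell in XAV939 aggregates (20.3% and 17.7% of all genes), and 19 rose and 8 fell in untreated ones (17.6% and 15.1%). Between days 4 and 5, 17 rose and 6 fell with XAV939 (15.9% and 15.2%) and 18 rose and 1 fell without it (10.5% and 8.17%). Between days 5 and 6, 12 rose and 2 fell with XAV939 (9.27% and 7.68%) and 17 rose and 2 fell without it (11.1% and 8.72%). Between days 6 and 7, 9 rose and 1 fell with XAV939 (4.2% and 2.96%), and 11 rose and 0 fell without it (5.17% and 7.02%).

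Type IV collagen forms the network that holds every basement membrane together. Its genes lie in head-to-head pairs, with starts beside each other on opposite strands. Col4a1 and Col4a2 encode the chains of the common network, and their annotated exons overlap by 22 bases at the shared start (chromosome 8). Because the strand setting of the counting is not given, reads from these bases could be given to either gene. The windows from 250 bases before to 50 after the RefSeq start, on the strand of each gene (RefSeq, GRCm38.p6), are shown because these genes rose together. Col4a2 spans chr8:11312555-11312854 on the plus strand and Col4a1 chr8:11312777-11313076 on the minus strand, so that 78 bases belong to both. Capitals mark GC boxes (GGGCGG, or CCGCCC on the other strand) and CCAAT boxes (CCAAT or ATTGG).
Col4a2: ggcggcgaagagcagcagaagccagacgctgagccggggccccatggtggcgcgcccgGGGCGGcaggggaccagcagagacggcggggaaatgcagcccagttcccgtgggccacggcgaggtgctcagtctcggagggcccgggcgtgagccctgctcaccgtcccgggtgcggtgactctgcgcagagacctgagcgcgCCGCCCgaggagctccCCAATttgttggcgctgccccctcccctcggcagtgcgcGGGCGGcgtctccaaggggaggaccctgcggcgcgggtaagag
Col4a1: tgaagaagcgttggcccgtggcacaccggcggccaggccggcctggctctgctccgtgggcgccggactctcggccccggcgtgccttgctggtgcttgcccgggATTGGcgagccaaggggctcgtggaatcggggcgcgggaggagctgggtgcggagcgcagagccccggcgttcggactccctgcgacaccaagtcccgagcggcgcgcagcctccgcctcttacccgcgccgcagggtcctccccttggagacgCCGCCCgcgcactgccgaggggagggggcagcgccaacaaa
Col4a5 and Col4a6, the chains of a network found in some basement membranes, form the second pair on chromosome X, with 1308 bases between them. Col4a5 spans chrX:141475169-141475468 on the plus strand and Col4a6 chrX:141474027-141474326 on the minus strand.
Col4a5: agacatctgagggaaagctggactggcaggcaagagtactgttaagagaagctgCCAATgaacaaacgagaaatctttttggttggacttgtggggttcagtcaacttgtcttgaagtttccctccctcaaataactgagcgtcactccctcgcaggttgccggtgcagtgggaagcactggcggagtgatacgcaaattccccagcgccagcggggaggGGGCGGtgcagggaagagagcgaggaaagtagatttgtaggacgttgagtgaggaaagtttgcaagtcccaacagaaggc
Col4a6: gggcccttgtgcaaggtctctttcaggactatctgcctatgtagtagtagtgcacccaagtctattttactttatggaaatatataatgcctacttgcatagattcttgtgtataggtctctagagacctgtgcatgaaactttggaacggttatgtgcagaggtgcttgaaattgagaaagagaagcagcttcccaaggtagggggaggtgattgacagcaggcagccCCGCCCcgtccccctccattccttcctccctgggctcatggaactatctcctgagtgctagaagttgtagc
The Col4a2 window held 3 GC boxes and 1 CCAAT box, and the windows of Col4a1 and Col4a5 held 1 of each. The GC box of Col4a1 lies in the 78 shared bases and is the same site as 1 of the 3 of Col4a2. The Col4a6 window held 1 GC box. The GC content was 73.7% for Col4a2 and 74.0% for Col4a1, against 52.7% for Col4a5 and 48.3% for Col4a6.

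Col4a1 rose in both arms. At day 7 it had 165, 171, 130 and 122 CPM in XAV939 libraries 1 to 4 and at day 3 it had 35.4, 23.4, 27.6 and 25.5 CPM. Untreated libraries had 203, 189, 194 and 178 CPM at day 7 and 40.4, 30.1, 29.6 and 35.5 CPM at day 3. The days were far apart in both arms, and at day 7 every untreated library lay above every XAV939 library. The log2 fold change of day 7 over day 3 was 2.40 (SE 0.22, adjusted p 1.43e-11) in XAV939 and 2.49 (SE 0.22, adjusted p 6.68e-12) in untreated aggregates. Col4a2 rose by more, by 3.08 (SE 0.22, adjusted p 2.46e-14) with XAV939 and 3.21 (SE 0.22, adjusted p 1.2e-14) without it. Its day 7 mean was 79.0 ± 17.4 CPM in XAV939 and 89.0 ± 5.69 CPM in untreated aggregates, and its day 3 mean was 9.29 ± 1.18 CPM in XAV939 and 9.63 ± 1.003 CPM in untreated aggregates.

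The ratio of Col4a1 to Col4a2, per kb, therefore shrank. In XAV939 aggregates it was 2.66 ± 0.303 at day 3, 3.03 ± 0.261 at day 4, 1.87 ± 0.185 at day 5, 1.63 ± 0.244 at day 6 and 1.67 ± 0.145 at day 7. In untreated aggregates it was 3.11 ± 0.186, 2.92 ± 0.199, 2.32 ± 0.165, 1.97 ± 0.164 and 1.90 ± 0.0943 on these days. A collagen IV trimer of this kind holds more of the chain of Col4a1 than of Col4a2. The XAV939 libraries lay below the untreated ones without overlap at days 3, 5 and 7, with a highest value of 2.879 against a lowest of 2.882 at day 3, 2.02 against 2.10 at day 5 and 1.77 against 1.83 at day 7, and the arms overlapped at days 4 and 6. These ratios were not tested. Col4a5 was already on at day 3, and Col4a6 came on at day 4 and was closest to it per kb at day 5. Their ratio was 9.08 ± 1.96 in XAV939 and 7.29 ± 3.41 in untreated aggregates at day 3 (3 libraries each with at least 10 counts of both genes), 0.963 ± 0.0726 in XAV939 and 1.17 ± 0.228 in untreated aggregates at day 5, and 2.76 ± 0.641 in XAV939 and 2.47 ± 0.477 in untreated aggregates at day 7. Col4a6 peaked at day 6, with a mean of 24.7 CPM in XAV939 and 18.1 CPM in untreated aggregates, and Col4a5 at day 7, with 35.4 CPM in XAV939 and 25.8 CPM in untreated aggregates.

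**Figure D2:**
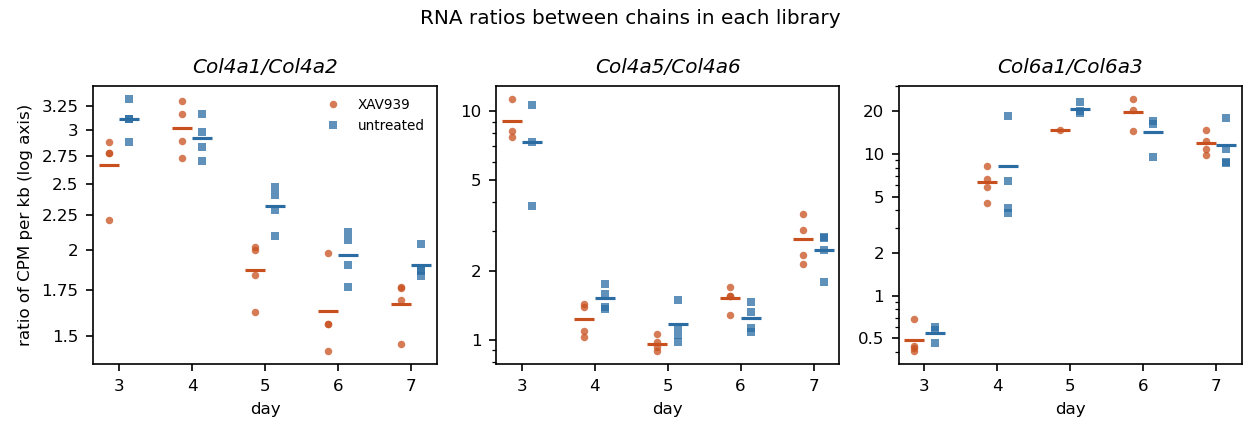
Ratios of CPM per kb between chains of type IV and type VI collagen in each library (points, log axis) by day, with XAV939 left of untreated and bars for the group means. Libraries with under 10 counts of either gene are left out. The ratio of Col4a1 to Col4a2 averaged 1.67 at day 7 in XAV939 and 1.90 in untreated aggregates, and that of Col6a1 to Col6a3 was 11.95 in XAV939 and 11.6 in untreated aggregates at day 7.

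Among the fibrillar collagens, 10 of 11 rose between days 3 and 7 in each arm. Col2a1, which encodes the chain of the cartilage and notochord fibril, had the highest level per kb of them from day 4 on, at 21.6 CPM per kb in XAV939 and 22.4 CPM per kb in untreated aggregates at day 7. Day 7 values were 239, 216, 161 and 183 CPM in XAV939 libraries 1 to 4, against 6.89, 5.65, 5.63 and 5.23 CPM at day 3. Untreated libraries had 175, 215, 208 and 230 CPM at day 7 and 7.37, 6.98, 5.46 and 6.37 CPM at day 3. No day 3 library came near a day 7 library, and the log2 fold change was 5.09 (SE 0.34, adjusted p 6.5e-15) with XAV939 and 4.98 (SE 0.33, adjusted p 1.01e-14) without it. At day 4 the XAV939 libraries held 79.5, 23.7, 26.6 and 53.2 CPM against 17.02, 15.2, 23.9 and 30.9 CPM in untreated ones. They overlap, and the log2 fold change of 1.07 (SE 0.29) had an adjusted p of 0.186. Col11a1, whose chain joins type II fibrils, had 31.9, 31.2, 20.7 and 26.8 CPM in XAV939 and 27.7, 37.8, 30.6 and 29.6 CPM in untreated libraries at day 7. Its largest step was between days 4 and 5, of 3.10 on the log2 scale with XAV939 (adjusted p 6.88e-09) and 2.03 without it (adjusted p 1.02e-05). The related Col11a2 averaged 8.34 CPM in XAV939 and 7.84 CPM in untreated aggregates at day 7.

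The chains of type V collagen, which joins type I fibrils, were on from day 3. Col5a1 averaged 42.1 ± 9.41 CPM in XAV939 and 40.8 ± 5.97 CPM in untreated aggregates at day 7, against 4.81 ± 1.23 CPM in XAV939 and 5.02 ± 0.830 CPM in untreated aggregates at day 3. Its partner Col5a2 averaged 23.7 ± 5.56 CPM with XAV939 and 22.7 ± 1.94 CPM without it at day 7, against 7.904 ± 2.08 CPM with it and 6.38 ± 1.59 CPM without it at day 3. Col27a1 and Col24a1, fibrillar genes of cartilage and bone, reached 9.096 and 2.76 CPM in XAV939 and 8.82 and 2.85 CPM in untreated aggregates at day 7. Col5a3, a further type V chain, had 0.861 to 1.43 CPM at day 3 and at most 0.778 CPM at days 4 to 6. Its day 7 values were 1.41, 1.15, 0.844 and 1.82 CPM in XAV939 and 0.692, 0.536, 0.445 and 0.846 CPM in untreated libraries, which overlap, since the lowest XAV939 library was just below the highest untreated one.

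Types I and III build the fibrils of skin, vessels and loose connective tissue. Of their genes Col1a1 and Col3a1 were the last fibrillar genes to come on, both at day 7. Col3a1 was below 1 CPM in every library up to day 6 but 1, and then rose by the largest day-to-day step of any fibrillar gene. At day 7 it had 32.7, 78.6, 9.54 and 49.2 CPM in XAV939 libraries 1 to 4 and 121, 43.1, 26.3 and 41.9 CPM in untreated ones. At day 6 it had 0.579, 0.551, 0.405 and 0.547 CPM in XAV939 libraries and 4.32, 0.885, 0.743 and 0.381 CPM in untreated ones. Each arm was higher at day 7 with no overlap, but the day 7 libraries spread widely and the arms overlap. The step from day 6 to day 7 was 6.34 on the log2 scale with XAV939 (adjusted p 1.96e-08) and 5.18 without it (adjusted p 4.39e-07). The promoter window of Col3a1 (chr1:45311288-45311587, plus strand, GRCm38.p6) is shown as an AT-rich contrast to those of type IV, with a GC content of 37.7%. It holds the letters TATAAA (capitals) 117 bases before the start, which is a match of letters only.
Col3a1: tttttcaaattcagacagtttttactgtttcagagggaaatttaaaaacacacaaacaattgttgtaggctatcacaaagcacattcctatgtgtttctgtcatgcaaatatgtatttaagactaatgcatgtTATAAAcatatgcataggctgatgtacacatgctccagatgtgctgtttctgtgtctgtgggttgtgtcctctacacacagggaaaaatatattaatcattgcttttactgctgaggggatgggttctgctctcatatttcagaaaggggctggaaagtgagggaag
Col1a1 and Col1a2 encode the chains of type I collagen, and Col1a2 was on from day 3 while Col1a1 came on at day 7. Col1a1 had 5.63, 4.10, 3.40 and 5.03 CPM in XAV939 and 6.29, 2.41, 3.78 and 4.38 CPM in untreated libraries at day 7. Col1a2 had 17.4, 18.4, 17.1 and 19.3 CPM in XAV939 and 23.4, 20.4, 24.7 and 20.4 CPM in untreated libraries. Type I trimers mostly hold more of the Col1a1 chain, yet the ratio of Col1a1 to Col1a2 per kb was under 1 at every day at which it could be taken, at 0.477 ± 0.104 in XAV939 and 0.358 ± 0.126 in untreated aggregates at day 7, or 0.227 in XAV939 and 0.170 in untreated aggregates with the longest transcript as the length. In the untreated arm the steps from day 5 to day 6 of Col3a1 (2.88, adjusted p 0.00117), Col1a1 (1.90, adjusted p 0.00132) and Col1a2 (1.23, adjusted p 0.00396) rest on library 1 of day 6. Without it they were 1.62 (adjusted p 0.0616), 1.08 (adjusted p 0.0505) and 0.67 (adjusted p 0.0987). In that library the 6 endothelial markers summed to 73.7 CPM, against 8.29 CPM in the lowest of the 4. Pdgfra stood at 147 CPM in it, against 52.1 to 70.5 CPM in the others. Of the other markers of paraxial mesoderm and mesenchyme, Meox1, Foxc1, Twist1 and Prrx1 were also highest in library 1. Tcf15 and Foxc2 were higher in library 3, at 37.4 against 18.8 CPM and 62.8 against 35.6 CPM. Tbx6 was lowest in library 1, at 1.89 CPM against 12.96 to 33.2 CPM in the others. The part of these cells in the result was not tested.

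**Figure D3:**
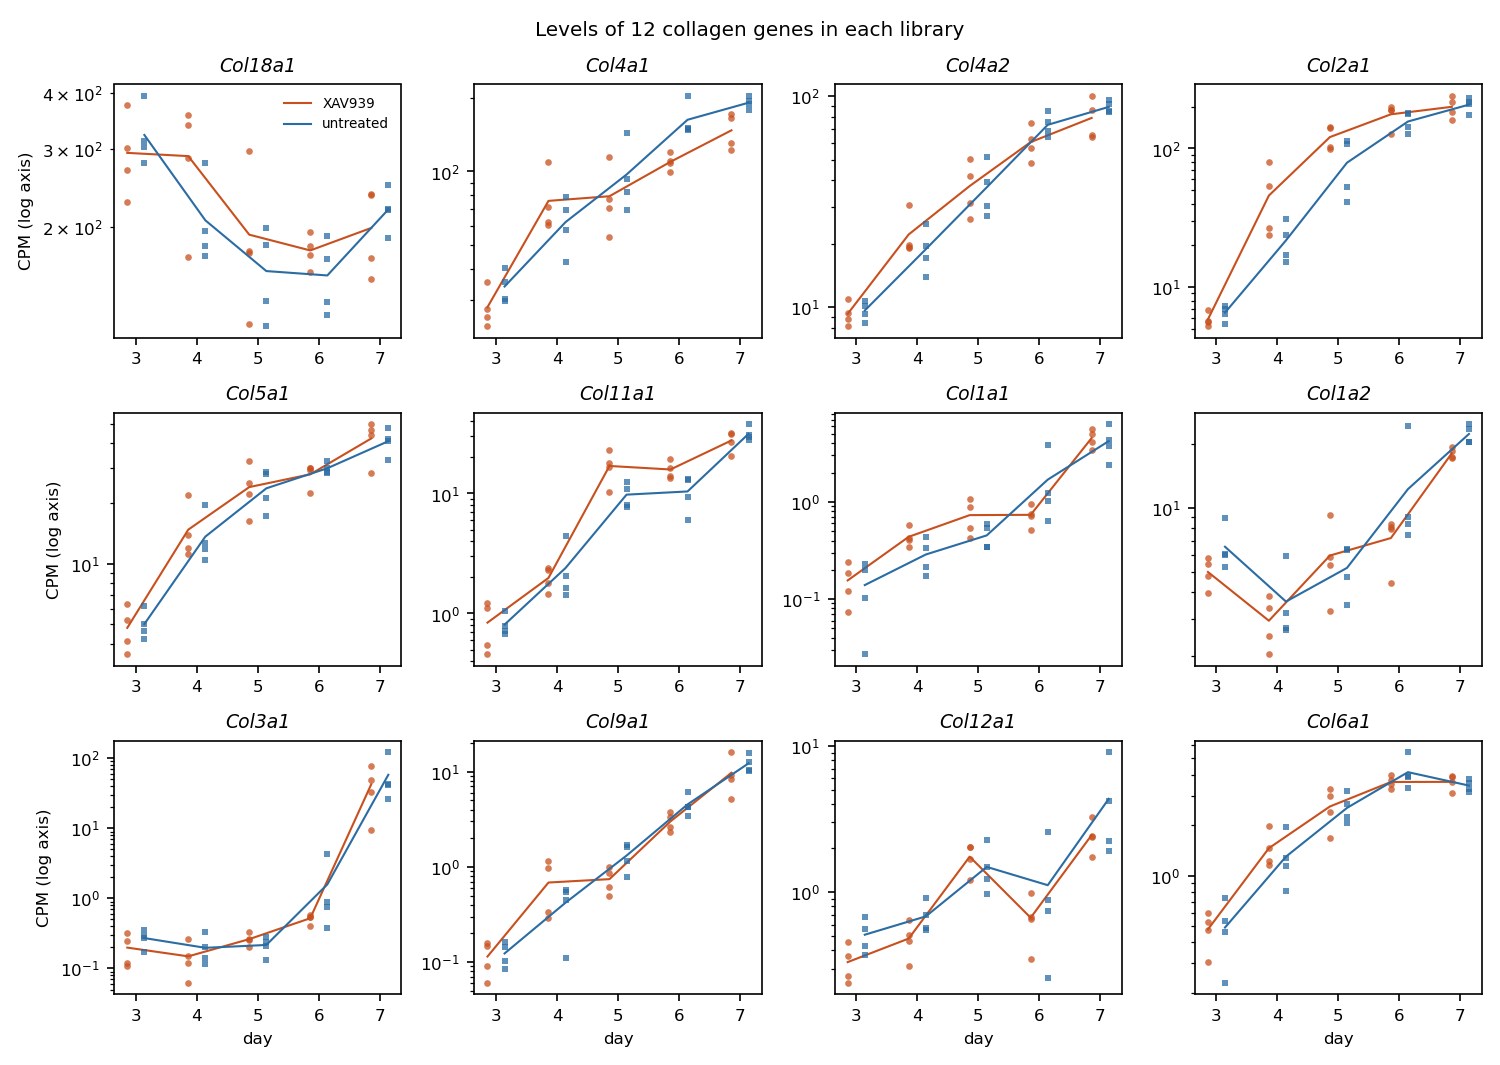
CPM (log axis) of 12 collagen genes in each library (points) by day, XAV939 left of untreated, with lines through the group means. Col18a1 stays between about 119 and 394 CPM, whereas Col3a1 stays under 1 CPM in all but 1 library until day 6 and reaches 9.54 to 121 CPM at day 7.

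Of the fibril-associated genes, Col9a1 and Col22a1 rose most. Col9a1, whose product coats type II fibrils, had 8.46, 15.9, 5.22 and 9.34 CPM in XAV939 and 15.7, 12.7, 10.1 and 10.4 CPM in untreated libraries at day 7, and at most 0.162 CPM at day 3. The arms overlap at day 7, and the rise was 6.37 on the log2 scale with XAV939 (SE 0.48, adjusted p 1.17e-13) and 6.60 without it (SE 0.47, adjusted p 4.25e-14). Col22a1, a collagen of muscle-tendon junctions, averaged 24.2 CPM in XAV939 and 20.3 CPM in untreated aggregates at day 7. Col9a2 reached 2.40 CPM in XAV939 and 2.16 CPM in untreated aggregates at day 7. Col9a3, the remaining chain of type IX, was on before its partners, with a mean of 11.7 CPM in XAV939 and 11.9 CPM in untreated aggregates at day 3. Col12a1, which binds type I fibrils, averaged 2.46 CPM in XAV939 and 4.35 CPM in untreated aggregates at day 7. Its day 7 values were 2.41, 1.75, 2.40 and 3.27 CPM in XAV939 and 9.04, 1.90, 2.26 and 4.21 CPM in untreated libraries, with library 1 of the untreated group above the rest. Col16a1 had its highest mean at day 4, at 2.21 CPM in XAV939 and 2.75 CPM in untreated aggregates. The untreated mean of day 4 rests on library 1, at 5.125 CPM, and the untreated median was 2.17 CPM at day 4 and 2.83 CPM at day 5. Col20a1 had its highest mean at day 7, at 3.003 CPM in XAV939 and 1.80 CPM in untreated aggregates.

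Type VI collagen builds beaded microfibrils from the chains of Col6a1, Col6a2 and another gene such as Col6a3, and these genes moved in opposite directions. Col6a1 had 3.91, 3.88, 3.61 and 3.10 CPM in XAV939 and 3.30, 3.56, 3.78 and 3.14 CPM in untreated libraries at day 7. At day 3 it had 0.532, 0.602, 0.304 and 0.476 CPM in XAV939 and 0.734, 0.539, 0.231 and 0.459 CPM in untreated libraries. It rose by 2.91 on the log2 scale with XAV939 (SE 0.28, adjusted p 4.87e-11) and 2.81 without it (SE 0.28, adjusted p 9.31e-11). Col6a2 rose by 1.18 with XAV939 (adjusted p 0.000694) and 1.43 without it (adjusted p 8.59e-05). Col6a3 fell by 1.69 on the log2 scale with XAV939 (SE 0.33, adjusted p 3.36e-05) and fell by 1.60 without it (SE 0.33, adjusted p 6.97e-05). The ratio of Col6a1 to Col6a3 per kb was 11.95 ± 2.199 in XAV939 and 11.6 ± 4.44 in untreated aggregates at day 7, where day 3 had 0.488 ± 0.131 in XAV939 and 0.544 ± 0.0743 in untreated aggregates (3 libraries). Col6a4 and Col6a5 also fell, from levels under 2 CPM in the group mean.

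Transmembrane collagens stay in the plasma membrane and can be shed. Col23a1 reached 37.5 ± 6.75 CPM in XAV939 and 44.2 ± 13.5 CPM in untreated aggregates at day 7, with a log2 fold change over day 3 of 5.15 with XAV939 (SE 0.43, adjusted p 1.15e-12) and 5.38 without it (SE 0.43, adjusted p 4.96e-13). Col25a1 averaged 4.48 CPM with XAV939 and 5.07 CPM without it at day 7. Of the remaining genes Col26a1, a secreted collagen first described in gonads, averaged 45.6 CPM in XAV939 and 56.6 CPM in untreated aggregates at day 7. Col7a1, which encodes the anchoring fibril under skin epithelium, stayed between 3.19 and 10.4 CPM at day 7 in the 8 libraries. Col8a2, a chain of hexagonal networks, reached 2.47 CPM with XAV939 and 1.89 CPM without it at day 7.

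The genes that modify, trim and bind collagen were looked up in lists chosen with earlier results known, and their counts stand beside 36.8% of all genes that rose and 34.1% that fell with XAV939, and 34.7% and 32.6% without it. Of 20 genes of chain modification and folding, 14 rose and 1 fell between days 3 and 7 with XAV939, and 12 rose and 0 fell without it. Serpinh1, the collagen chaperone HSP47, averaged 235 ± 32.6 CPM in XAV939 and 269 ± 3.92 CPM in untreated aggregates at day 7, against 38.2 ± 3.68 CPM in XAV939 and 40.2 ± 6.84 CPM in untreated aggregates at day 3. P3h2, a prolyl 3-hydroxylase, and Fkbp14, a prolyl isomerase, rose by 4.56 and 5.46 on the log2 scale with XAV939 and 4.60 and 5.68 without it. Of 14 cleavage and crosslinking genes 6 rose and 4 fell in each arm. Bmp1, which removes the procollagen C-propeptide, rose by 4.99 with XAV939 and 5.06 without it. Pcolce2, an enhancer of that cleavage, fell by 3.17 with XAV939 and fell by 3.07 without it. Of 8 tested collagen receptors 6 rose and 0 fell in each arm, among them the integrin chains Itga2 and Itga11 and the receptor kinase Ddr2. Of 7 tested collagenases and gelatinases 6 rose and 0 fell, and of 9 secretion genes 2 rose and 2 fell, in each arm. Sox5, Sox6, Sox8, Sox9 and Sox10 rose in both arms, and of these Sox9, Sox5 and Sox6 are known to drive Col2a1 in cartilage. Sox9 averaged 16.8 ± 3.80 CPM in XAV939 and 18.3 ± 6.13 CPM in untreated aggregates at day 7, against 1.72 ± 0.486 CPM in XAV939 and 1.42 ± 0.317 CPM in untreated aggregates at day 3.

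Marker sums of paraxial mesoderm, mesenchyme and notochord were higher at day 7 than at day 3 in both arms. The part of these cells in the rises was not tested. The 8 markers of paraxial mesoderm and mesenchyme summed to 174 to 338 CPM in XAV939 and 254 to 447 CPM in untreated libraries at day 7, against 2.53 to 4.14 CPM in XAV939 and 3.36 to 4.23 CPM in untreated libraries at day 3, and 7 of 8 rose in each arm. The 5 notochord markers summed to 63.6 to 141 CPM in XAV939 and 49.1 to 166 CPM in untreated libraries at day 7, against 3.32 to 5.68 CPM in XAV939 and 4.28 to 5.22 CPM in untreated libraries at day 3. The median notochord sum was highest at day 5, at 235 CPM in XAV939 and 452 CPM in untreated aggregates. It then fell, to 80.5 CPM in XAV939 and 79.6 CPM in untreated aggregates at day 7. Of the notochord genes Noto and Shh were at 0 in all XAV939 libraries of day 3. T was the largest part of the notochord sums at day 5, at 106 to 266 CPM in XAV939 and 283 to 490 CPM in untreated libraries. Noto had at most 1.85 CPM in XAV939 and 3.18 CPM in untreated libraries at day 5. At day 7 it had at most 0.742 CPM in XAV939 and 0.536 CPM in untreated libraries, so these sums say little of Noto. The 6 endothelial markers summed to 25.2 to 36.3 CPM in XAV939 and 41.9 to 159 CPM in untreated libraries at day 7, against 25.1 to 34.5 CPM in XAV939 and 27.1 to 40.4 CPM in untreated libraries at day 3, so the sums of the 2 days overlapped with XAV939 and not without it. Cdh5 and Emcn were at 0 in the XAV939 and Emcn in the untreated libraries of day 3. Of the 6 genes 4 rose and 2 fell with XAV939, the adhesion molecule Pecam1 (log2 fold change -3.10, adjusted p 2.37e-05) and the angiopoietin receptor Tek (-2.03, adjusted p 0.000191). Without it 4 rose and Pecam1 fell (-1.91, adjusted p 0.00323).

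Few collagen genes were called between the arms without pairing libraries by replicate number, and all were lower with XAV939, at days 5 and 6. With the pairing more were called, some of them at day 7 and some in the other direction. The counts that follow here are without the pairing. Of the 38 tested genes 0 were called at day 3, day 4 and day 7, where 0.00592%, 0.0178% and 0.00592% of all genes were called lower and 0 higher. At an unadjusted p under 0.05 there were 0, 3 and 5 at these days, where 1.83%, 5.59% and 7.86% of all genes had such a p. DESeq2 called 0 at each, and 0.00592%, 0.332% and 0.598% of all genes. At day 5, 1 gene was lower (1.43% of all genes) and 0 higher (0.912%). At day 6, 3 were lower (2.95%) and 0 higher (1.39%). At an unadjusted p under 0.05 there were 8 at day 5 (12.5% of all genes) and 12 at day 6 (15.7%), and DESeq2 called 2 at day 5 (3.64%) and 3 at day 6 (5.73%). Groups without overlap between the arms numbered 1 higher and 3 lower at day 5 (3.44% and 4.02% of all genes), 2 higher and 5 lower at day 6 (2.1% and 3.82%) and 1 higher and 2 lower at day 7 (2.09% and 2.81%). The median log2 fold change of the 38 genes was -0.05 at day 5 and -0.18 at day 6, against 0.01 at day 5 and -0.01 at day 6 over all genes.

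**Figure D4:**
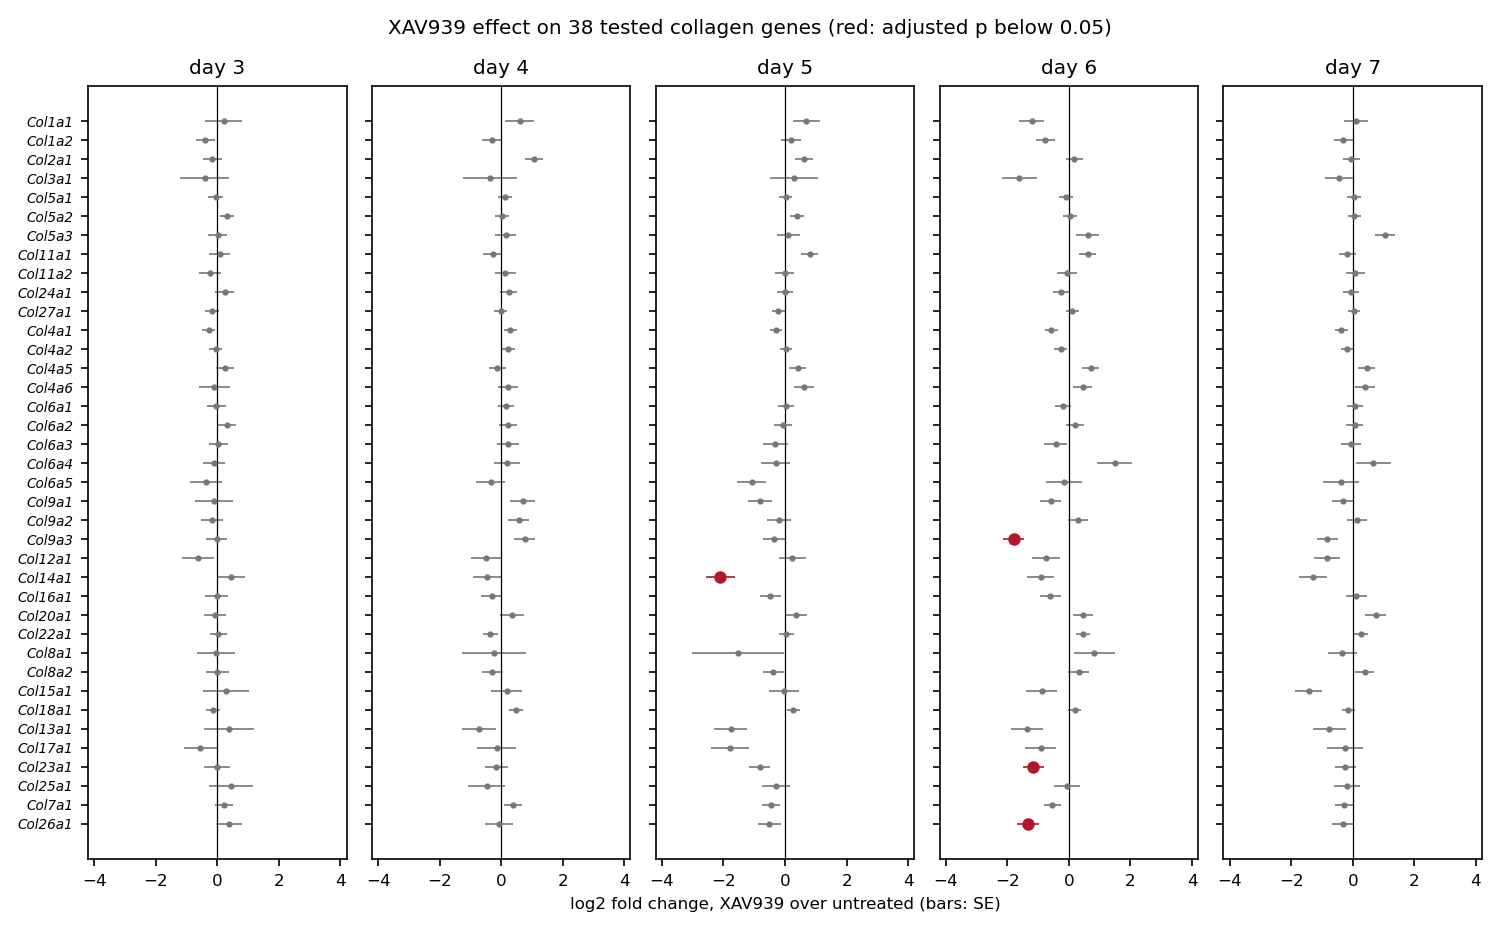
Log2 fold change of XAV939 over untreated (points, bars are SE) for the 38 tested collagen genes in each day, ordered by class. Red points passed an adjusted p of 0.05: Col14a1 at day 5 and Col9a3, Col23a1 and Col26a1 at day 6, all lower in XAV939 aggregates.

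Col14a1, a fibril-associated collagen that binds type I fibrils, was lower at day 5. It had 1.32, 1.55, 1.17 and 1.58 CPM in XAV939 libraries 1 to 4 and 13.2, 4.001, 2.83 and 4.21 CPM in untreated ones. Every XAV939 library lay below every untreated one, and untreated library 1 was far above the rest. The log2 fold change was -2.11 (SE 0.47, adjusted p 0.0105), and without untreated library 1 it was -1.39 with an adjusted p of 0.135. At day 6 the values were 2.65, 2.26, 9.53 and 3.93 CPM in XAV939 and 12.9, 7.08, 6.56 and 7.91 CPM in untreated libraries, which overlap through XAV939 library 3 and did not differ beyond the threshold (log2 fold change -0.91, adjusted p 0.303). With libraries paired by replicate number the day 6 value was -1.10 (adjusted p 0.0529), and -1.13 (adjusted p 0.0296) with length and GC offsets as well. At day 7 it was -1.29 (adjusted p 0.291), -1.27 (adjusted p 0.0762) with the pairing and -1.27 (adjusted p 0.0493) with both.

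Col9a3, a chain of type IX collagen, was lower at day 6, with 3.48, 5.12, 3.19 and 3.31 CPM in XAV939 and 12.8, 12.3, 21.2 and 5.92 CPM in untreated libraries. The groups did not overlap, and the log2 fold change was -1.79 (SE 0.35, adjusted p 0.00195). It kept its call when any 1 of the 8 libraries was left out, with log2 fold changes of -1.45 to -2.03. In the untreated arm Col9a3 had risen between days 5 and 6 by 1.81 on the log2 scale (adjusted p 0.000237), and with XAV939 the change over that step was 0.38 (adjusted p 0.533). At day 7 it averaged 5.996 ± 1.62 CPM in XAV939 and 10.7 ± 4.51 CPM in untreated aggregates, a difference that did not pass (log2 fold change -0.83, adjusted p 0.436). An exon of Tcfl5 on the other strand overlaps an exon of Col9a3. Tcfl5 averaged 26.8 ± 8.82 CPM in XAV939 and 29.2 ± 9.24 CPM in untreated aggregates at day 6 and did not pass the test (log2 fold change -0.12, adjusted p 0.825).

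Col26a1 and Col23a1 were lower at day 6 with narrower margins. Col26a1 had 16.3, 19.7, 15.2 and 13.7 CPM in XAV939 and 59.5, 24.1, 51.9 and 28.0 CPM in untreated libraries, with no overlap (log2 fold change -1.33, SE 0.37, adjusted p 0.0268). Its call ended in 5 of 8 cases when 1 library was left out (untreated library 1 or 3, or XAV939 library 1, 3 or 4), with an adjusted p of up to 0.108. Col23a1 had 27.8, 33.7, 26.3 and 22.0 CPM in XAV939 and 77.9, 56.7, 71.1 and 39.7 CPM in untreated libraries, again with no overlap (log2 fold change -1.16, SE 0.34, adjusted p 0.0445). Its call was kept only without untreated library 4 and ended when any other library of the 8 was left out (adjusted p up to 0.169). At day 7 neither gene passed, with log2 fold changes of -0.31 for Col26a1 and -0.24 for Col23a1 (adjusted p 1 for each).

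**Figure D5:**
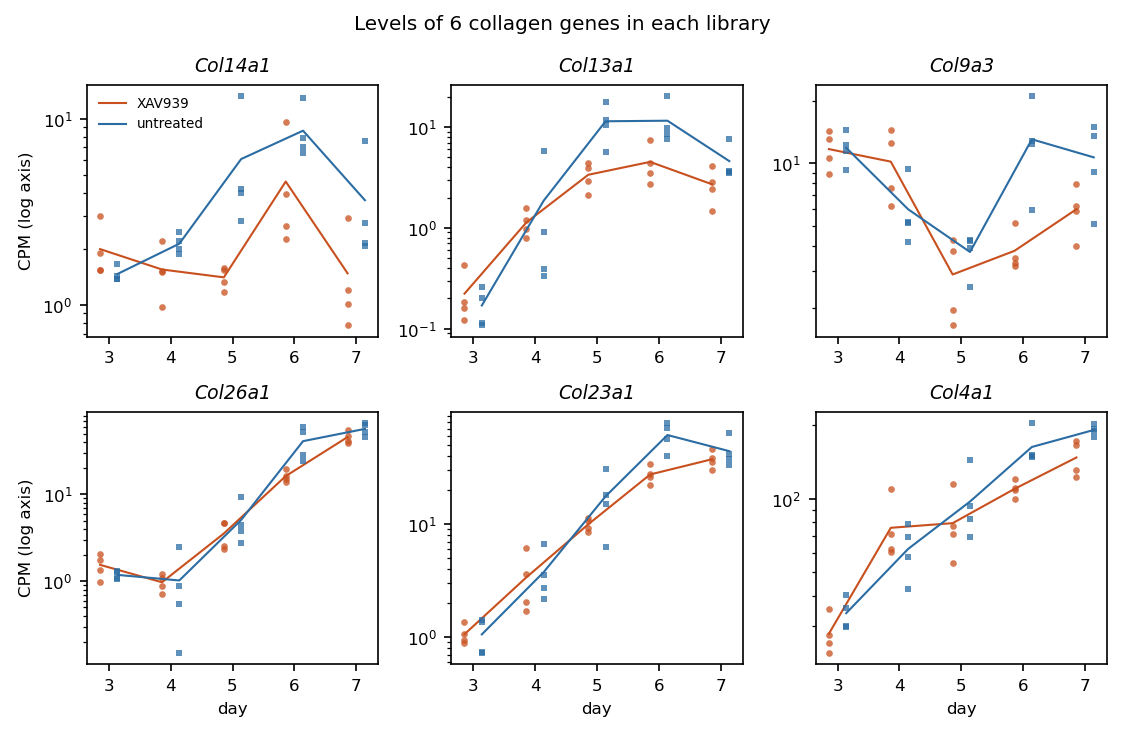
CPM (log axis) of 6 collagen genes in each library (points) by day, XAV939 left of untreated, with lines through the group means. No XAV939 library reaches an untreated one for Col14a1 at day 5 or for Col9a3, Col26a1 and Col23a1 at day 6, and at day 7 the arms overlap for these 4 genes.

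Libraries with the same replicate number were paired within a day, and with that pairing as a block more genes passed. At day 5 there were 2 lower (4.41% of all genes) and 1 higher (2.93%). Besides Col14a1 (log2 fold change -1.85, adjusted p 0.00453) these were Col13a1, a transmembrane collagen of the neuromuscular junction, at -1.71 (adjusted p 0.00227) and Col11a1 at 0.77 (adjusted p 0.0443). Col13a1 had 3.96, 4.45, 2.92 and 2.14 CPM in XAV939 and 17.9, 10.5, 11.7 and 5.71 CPM in untreated libraries at day 5, with no overlap, and without the block its adjusted p was 0.0712. At day 6 there were 6 lower (5.9%) and 2 higher (4.34%). The added genes were Col4a1 at -0.56 (adjusted p 0.000602), Col13a1 at -1.34 (adjusted p 0.00674) and Col7a1 at -0.52 (adjusted p 0.0332), and, higher, Col4a5 at 0.73 (adjusted p 0.0235) and Col22a1 at 0.44 (adjusted p 0.0305). Col4a1 had 120, 110, 108 and 99.7 CPM in XAV939 and 203, 149, 150 and 148 CPM in untreated libraries at day 6, with no overlap. At day 7 there was 1 lower (1.32%), Col4a1 at -0.39 (adjusted p 0.0367), and 1 higher (0.942%), Col5a3 at 1.04 (adjusted p 0.0471).

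An F test over the 5 daily effects together called 2 of 38 collagen genes, Col9a3 (adjusted p 0.0041) and Col14a1 (adjusted p 0.0071), where 5.8% of all genes were called. With the block there were 9, where 13.4% of all genes were called. A change of the effect from day to day was called for 0 of 38 genes, where 0.231% of all genes were called. The nearest was Col9a3 (adjusted p 0.0631), and with the block 3 passed, Col9a3 (adjusted p 0.0111), Col4a1 and Col7a1, where 2.6% of all genes were called.

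Cell type markers moved with these differences, and their part in them was not tested. At day 5, 5 of 8 markers of paraxial mesoderm and mesenchyme were lower in XAV939 aggregates, with sums of 17.8 to 29.4 CPM against 28.7 to 205 CPM in untreated libraries, and at day 6, 2 of 8 were lower, with sums of 144 to 233 CPM against 249 to 503 CPM. Of 6 epithelial markers 3 were lower at day 5 and 5 at day 6, when they summed to 234 to 407 CPM in XAV939 and 482 to 1407 CPM in untreated libraries. Of 6 tested endoderm markers 2 were lower at each of these days. These counts stand beside the shares of all genes called lower at days 5 and 6, given above. Epiblast sums at day 6 were 147 to 225.5 CPM in XAV939 and 256 to 488 CPM in untreated libraries, and they overlapped at day 5. Notochord sums at day 5 were 120 to 301 CPM in XAV939 and 331 to 578 CPM in untreated libraries, and they overlapped at day 6. Endothelial and neural crest sums overlapped at both days. The 6 neural progenitor markers summed to 338 to 565 CPM in XAV939 and 172 to 333 CPM in untreated libraries at day 6. Nes was the largest part of each sum, at 156 to 319 CPM in XAV939 and 77.8 to 166.5 CPM in untreated libraries. Sox1 and Sox2 were higher in XAV939 libraries with no overlap, whereas Nes, Sox3, Hes5 and Pax6 overlapped between the arms. Of the endoderm genes Ttr was at 0 in the XAV939 libraries of day 5, and no gene of these lists was at 0 in all libraries of a day 6 group. Among the genes that process or bind collagen, Tll2, a relative of Bmp1, was lower at day 5 (log2 fold change -2.79, adjusted p 0.0039). It had 0.674, 0.497, 0.458 and 0.329 CPM in XAV939 and 8.99, 2.12, 1.75 and 0.921 CPM in untreated libraries 1 to 4. The groups did not overlap, untreated library 1 stood far above the rest, and without it the value was -1.69 with an adjusted p of 0.0711. At day 6 Pcolce (-1.32, adjusted p 0.00746), Tll1 (-1.30, adjusted p 0.0316) and Ddr2 (-1.92, adjusted p 0.0139) were lower and 0 were higher at either day. Each of these 3 calls also rested on single libraries, which were left out in turn for these 4 genes after their values were seen. Without untreated library 1 the adjusted p was 0.0702 for Pcolce, 0.0638 for Tll1 and 0.245 for Ddr2, whose log2 fold change was then -0.89. Each call was lost too without XAV939 library 4 (adjusted p 0.0526, 0.13 and 0.0584 for Pcolce, Tll1 and Ddr2), those of Tll1 and Ddr2 without XAV939 library 1 (0.113 and 0.0542) or 3 (0.0506 and 0.0515), and that of Tll1 without untreated library 2 (0.153).

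The start sites were also searched for sequence motifs of factors tied to Wnt signalling and to cartilage. A window was found for 35 of the 44 genes, and the others (Col1a1, Col2a1, Col4a3, Col5a2, Col9a3, Col12a1, Col14a1, Col22a1 and Col26a1) have none in the table used. Col14a1, Col9a3 and Col26a1, called lower with XAV939, and Col2a1 are thus left out, and the search says nothing of them. The TCF/LEF motif (CTTTGAT or ATCAAAG on the other strand) was present in 1 gene, Col9a2, and in 3.73% of all 32851 windows. The Sox motif (ACAATGG or CCATTGT) was present in 0 of 35 genes and 3.66% of all windows. GC boxes were present in 22 genes, in 23 of the 38 windows of these 35 genes, and in 35.7% of all windows. CCAAT boxes were present in 13 genes, in 13 of the 38 windows, and in 37.4% of all windows. TATAAA (or TTTATA) was present in 5 genes, Col3a1, Col10a1, Col11a2, Col13a1 and Col17a1, in 5 of the 38 windows, and in 13.6% of all windows. A match is a description of letters and not a bound site.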

How the data were processed

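Gene-level RNA values came from 1 table with 40 columns, in poly(A) RNA of 10 groups of 4 libraries. RNA came from Trizol extracts and went into stranded TruSeq libraries, per the labels' protocols. The submitters' processing notes name bcl2fastq 2.20.0 and the build mm10. Which aligner, counter and strand setting were used is not given in the sources used here. As deposited by the authors, the table holds raw counts per gene, whole numbers without normalisation.

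The 44 members, the gene lists and the tests were chosen with earlier results of these data known. Members on in at least 1 group are named, a fixed panel of 14 genes is given by library, and up to 10 called members per XAV939 contrast. Counts were tested with edgeR 4.0.16 in R 4.3.3 (filterByExpr, minimum count 10 and total 15, 16878 genes; TMM scaling; quasi-likelihood fit of all 10 groups, 30 residual degrees of freedom) with Benjamini-Hochberg adjustment over all genes and a threshold of 0.05. Same-numbered XAV939 and untreated libraries of a day deviated together from their group means (correlation 0.145 to 0.523, 20 of 20 pairs above 0.1), so the numbers were taken to pair them. No 2 libraries of a group were copies (smallest chi-square per gene 10.2). On simulated counts for the day 5 contrast (16725 genes) 54% of 2-fold and 84% of 4-fold changes were recovered, and 5.48% of calls were false. Exon lengths and coordinates came from GENCODE M21, to which 26857 identifiers matched, and promoters from RefSeq GRCm38.p6. Alternatives were relative log expression size factors, DESeq2 1.42.0, other filters, a fold threshold, blocks, length and GC offsets, fits of only the libraries compared and each library left out.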

Additional observations from a re-analysis of the deposited data

Results flagged for a closer look

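In 12 of 180 groups of 4 libraries examined (18 genes in 10 groups), 1 library stood apart from the other 3, by Dixon's gap test at the 95% level. Chance gives about 1 in 20 such groups. No explanation was tested.

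Col13a1 was at 5.82 CPM in untreated library 1 of day 4, where the others had 0.333 to 0.912 CPM, and at 7.63 CPM in untreated library 3 of day 7 (others 3.48 to 3.68 CPM). Col14a1 was at 13.2 CPM in untreated library 1 of day 5 (others 2.83 to 4.21 CPM) and at 7.60 CPM in untreated library 3 of day 7 (others 2.07 to 2.77 CPM). Library 1 of the untreated day 6 group was highest for Col1a2 at 24.1 CPM (others 7.43 to 8.996 CPM), Col3a1 at 4.32 CPM (others 0.381 to 0.885 CPM) and Col4a1 at 203 CPM (others 148 to 150 CPM). Library 3 of the XAV939 day 6 group was lowest for Col1a2 at 4.40 CPM (others 7.93 to 8.36 CPM), Col2a1 at 126 CPM (others 188 to 200.5 CPM) and Col5a1 at 22.5 CPM (others 29.3 to 30.0 CPM). Col4a2 was at 30.6 CPM in XAV939 library 1 of day 4 (others 19.0 to 19.6 CPM), and Col9a3 at 5.12 CPM in XAV939 library 2 of day 6 (others 3.19 to 3.48 CPM).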

How the results depend on the processing

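None of the alternatives run turned the direction of a called value, and no explanation of any change was tested beyond what each setting does by construction. Counts of called collagen genes depended on the block and on the fit. For XAV939 at day 5 (1 as reported) they were 2 with the replicate number as a block over all libraries, 3 with the replicate block within each day, 4 with length and GC offsets and that block, 3 without untreated libraries 1 of day 4 and 3 of day 6, 2 with DESeq2 and 0 when only the libraries compared were fitted. For day 6 (3) they were 5 with the block over all libraries, 8 with the block within each day, 9 with offsets and that block, 1 with no filter on low counts and 0 with only the libraries compared, a fit that called 0 genes of the whole table at either day. For day 7 (0) the block within each day gave 2, with offsets 3, and the fit of only that day with the block 3. Leaving out 1 library gave 0 to 2 at day 5 and 1 to 6 at day 6.

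The change of the effect over days (0) was called for 1 gene with the block over all libraries, 3 with the block within each day, 1 with offsets, 3 with both, 1 with DESeq2, 1 with the block in the libraries compared, and 0 to 1 without 1 library. The effects together (2) gave 4, 9, 4, 11, 4 and 4 in these settings, 4 without the 2 libraries named above and 2 to 4 without 1 library. Counts between days shrank with a filter of 5 CPM in 4 libraries, which tests fewer genes. Day 7 against day 3 gave 21 in each arm (35 with XAV939, 36 without). The steps with XAV939 gave 13 (day 4, main 22), 9 (day 6, main 14) and 6 (day 7, main 10), and without it 16 (day 4, main 27) and 5 (day 7, main 11). With only the libraries compared, the untreated steps gave 9 at day 6 (main 19; 10 with the block) and 5 at day 7, and the XAV939 step to day 7 gave 24 with the block. The XAV939 step to day 6 gave 9 to 13 without 1 library, lowest without library 3 of day 5. At 5 CPM the numbers of genes on were 5, 7, 11, 14 and 17 with XAV939 and 6, 5, 11, 18 and 17 without it at days 3 to 7.

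Depth limits the genes under 1 CPM, whose fold changes rest on few counts, and arms of 4 libraries recovered 54% of simulated 2-fold changes.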

Other observations

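Collagen genes that lie next to each other did not all behave alike. Col3a1 and Col5a2 are tail to tail on chromosome 1, 24614 bases apart, and between days 3 and 7 Col3a1 rose by 7.68 on the log2 scale with XAV939 and 7.72 without it, while Col5a2 rose by 1.58 with XAV939 and 1.83 without it. Col9a1 lies 9205 bases from Col19a1 on the same chromosome, and Col9a1 was on from day 6 whereas Col19a1 was on in no group. Col4a3 and Col4a4, a head-to-head pair 71 bases apart, were both on in no group. Col6a4, Col6a5 and Col6a6 form a run on chromosome 9 with gaps of 28810 and 27917 bases, and none was on in any group. Among the type IX genes Col9a3 and Col9a2 were lowest at day 5. Col9a3 had means of 2.898 CPM in XAV939 and 3.72 CPM in untreated aggregates, where day 3 had 11.7 CPM in XAV939 and 11.9 CPM in untreated aggregates. Col9a2 had 0.366 CPM in XAV939 and 0.426 CPM in untreated aggregates at day 5, against 0.919 CPM in XAV939 and 1.04 CPM in untreated aggregates at day 3. Col9a1 had 0.743 CPM in XAV939 and 1.31 CPM in untreated aggregates at day 5, and 0.114 CPM in XAV939 and 0.123 CPM in untreated aggregates at day 3. Days 5 and 3 were not tested against each other.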
